A study of Mus musculus with 8 samples.

Results

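The genes of the cytosolic ribosome and the factors that start and extend protein chains were compared between cisplatin-injured and control mouse kidneys. Members were the protein-coding rows of the count table, outside chromosome Y, whose symbol begins with Rpl or Rps and a number, is Rplp0, Rplp1, Rplp2 or Rpsa, or begins with Eif or Eef and a factor number. The kinases Eif2ak and Rps6k, which share these letters, were left out. This gave 107 of the 35880 rows used, of which 70 were ribosomal protein genes and 37 were translation factors with their regulators. Bulk RNA from whole kidneys of 8 mice was sequenced, 4 given saline and 4 given cisplatin, a platinum drug that is toxic to the kidney. Both groups were wild type, and per the study's methods they were male C57/BL6J mice injected intraperitoneally. Kidneys were taken 72 h after the injection, so 1 time point was measured. Age was not given in the sources used here. The labels number the libraries 1, 2, 3 and 5 in the control group and 1, 3, 4 and 6 in the cisplatin group, and per-library values below follow that order.

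The ribosome has a small subunit, which reads the mRNA, and a large subunit, which joins amino acids, and each is built of ribosomal RNA and a set of ribosomal proteins. Initiation factors (eIF) load the small subunit onto the mRNA and let the large subunit join, and elongation factors (eEF) deliver tRNA and move the ribosome along. The mRNAs of mammalian ribosomal proteins, and of several factors, are known for a 5′ terminal oligopyrimidine (TOP) tract, a C at the cap followed by C and T bases, through which their translation responds to the kinase mTOR.

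Total counts over the rows used ran from 10953338 to 16701599 per library, and 3 counts corresponded to 0.180 to 0.274 CPM (counts scaled by each library's total) by these totals, a floor that covers counting error only. CPM values below were further normalized by TMM, a scaling that sets most genes near no change. The libraries split in a way the groups do not explain: over 9001 genes without the members, the first principal component separated the groups (73.8% of variance), and the second (15.6%) separated control 5 and cisplatin 4 and 6 from control 1, 2 and 3 and cisplatin 1 and 3. The former 3 libraries are referred to as the second library set and the latter 5 as the first, and the labels give no batch for them. Fits below with the library set as a covariate use this split, which was read from the same libraries. Their adjusted p may therefore be too small. Cisplatin 1 and 3 also held almost no counts of Y-linked genes (Kdm5d at 2 and 0 counts, against 274 to 576 elsewhere), although the study's methods describe male mice. The kidney origin was seen in 23 of 23 proximal tubule markers tested, all of which were lower after cisplatin, their summed level going from between 84846 and 105409.6 CPM to between 2439 and 16814 CPM. In bulk tissue, fewer cells of a type and less RNA per cell cannot be told apart.

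RefSeq promoter windows (GRCm38.p6) held a sequence for 43 of the 58 ribosomal proteins of the 2 subunits and for 26 of the 37 factors. A TOP-like tract was a C followed by at least 4 bases that are C or T, read on the transcribed strand only. Such a C lay exactly at the annotated start in 7 of 43 ribosomal proteins (16.3%) and in 1 of 26 factors (Eif3f, 3.85%). This held for 3.01% of all 27025 genes with a window. Within 10 bases of the start the tract was found in 22 of 43 (51.2%), 7 of 26 (26.9%) and 34.4%. The match describes letters at an annotated start, which may lie some bases from the cap. The 7 ribosomal proteins, picked for a tract at the start, are shown with 3 factors described below, which have no tract within 10 bases. The display therefore does not compare ribosomal proteins with factors. Each sequence gives 10 bases before and 20 bases from the annotated start, with the tract, read from the start on, in capitals. In each of the 7 the base just before the start was also C or T. The annotated starts of the ribosomal proteins lay 2 to 405 bases from the gene start in the count table, and those of the 3 factors 0 to 8 bases.
Rpl38 (chr11:114668570-114668599, plus strand): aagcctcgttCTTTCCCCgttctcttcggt
Rplp2 (chr7:141447641-141447670, plus strand): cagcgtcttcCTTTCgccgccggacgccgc
Rps18 (chr17:33955646-33955675, minus strand): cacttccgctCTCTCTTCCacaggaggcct
Rps6 (chr4:86857348-86857377, minus strand): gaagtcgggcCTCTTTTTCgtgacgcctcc
Rps21 (chr2:180257369-180257398, plus strand): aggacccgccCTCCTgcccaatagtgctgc
Rpl15 (chr14:18270967-18270996, minus strand): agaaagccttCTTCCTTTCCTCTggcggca
Rpl28 (chr7:4792955-4792984, plus strand): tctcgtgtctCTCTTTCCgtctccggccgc
Eif4a1 (chr11:69672404-69672433, minus strand): gtaacgtcacgtcgagttgcagagcgccgg
Eif5a2 (chr3:28781267-28781296, plus strand): gcccgggctgggcgggccggggcggggagc
Eif4ebp2 (chr10:61452650-61452679, minus strand): cgcagcgggacgaccgggcgagagcaggcg
The log2 fold changes of the 7 ribosomal proteins, cisplatin over control, were 1.73 for Rpl38, 1.54 for Rplp2, 1.36 for Rps18, 1.01 for Rps6, 0.98 for Rps21, 0.97 for Rpl15 and 0.90 for Rpl28. Of these, Rps21 and Rpl28 did not pass the test. The median over all 65 ribosomal proteins tested, with or without a tract, was 1.29. The 7 tested factors with a tract within 10 bases had a median log2 fold change of 0.18, and 1 rose. The 19 with a sequence but no tract there had 0.39, and 7 rose, where 26.4% of all genes did. Eef1a1, not shown above, had a tract within 10 bases and 0.10. The 9 tested factors on a list of TOP mRNAs had a median of 0.10, and the 27 others 0.34. Whether the tract goes with the rise was not tested.

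Ribosomal protein mRNA took up a larger part of the kidney's counts after cisplatin. The 70 genes held 0.917%, 0.982%, 0.975% and 1.92% of the counts in the control libraries and 3.28%, 2.81%, 5.25% and 5.54% in the cisplatin libraries. The groups did not overlap, the mean was 1.20% ± 0.48 (SD, n = 4) against 4.22% ± 1.38 (SD, n = 4), and cisplatin was 3.52 times the control. Factor mRNA went from 1.39%, 1.44%, 1.31% and 1.63% to 2.33%, 2.16%, 2.38% and 2.49%, 1.62 times the control. The groups did not overlap there either. Counts on ribosomal proteins were thus fewer than those on factors in control 1, 2 and 3 (ratios of 0.662, 0.681 and 0.742), slightly more in control 5 (1.18), and more in every cisplatin library (1.41, 1.30, 2.21 and 2.23). A share of all counts moves with every other gene. On the TMM scale the ribosomal protein sum was 10992, 11505, 11896 and 24422 CPM in the controls and 24930.3, 22504, 45592 and 48161 CPM after cisplatin, and control 5 lay above cisplatin 3, so on that scale the groups overlapped. The factor sum on that scale was 16038 to 20740.1 CPM in the controls and 17307 to 21633 CPM after cisplatin, which overlapped almost whole. A sum is weighted by its most abundant genes. The median log2(CPM + 0.5) of the factors tested was 6.68 to 7.12 in the controls and 7.30 to 7.72 after cisplatin, without overlap. The same median of the ribosomal proteins tested was 7.22 to 8.41 and 8.32 to 9.52, which overlapped.

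**Figure D1:**
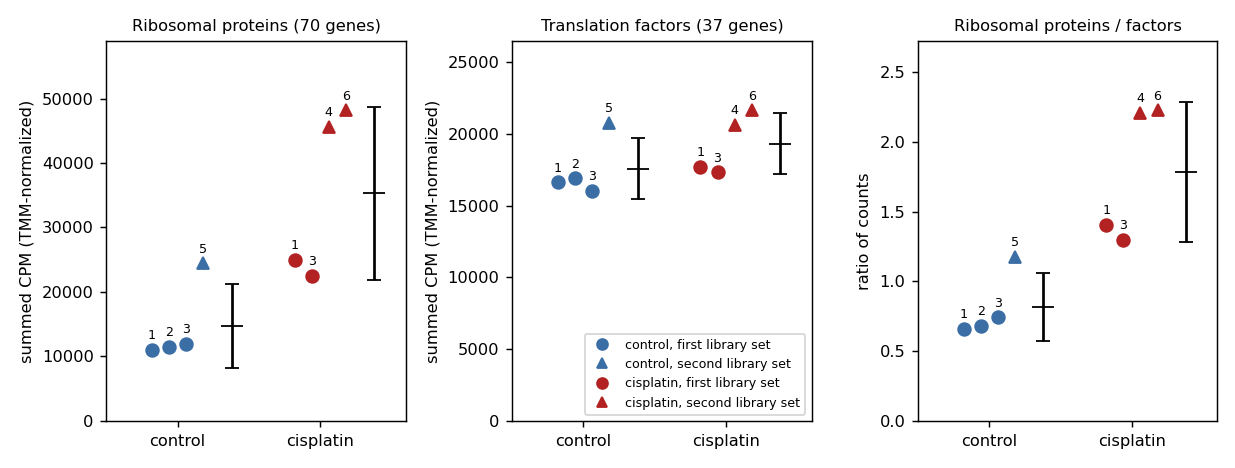
Summed TMM-normalized CPM of the 70 ribosomal protein genes (left) and the 37 translation factors (middle), and the ratio of their counts (right), for each of the 8 libraries, numbered as in the labels. Bars give the mean ± SD (n = 4) of each group, and circles and triangles mark the first and the second library set. The ribosomal protein sum of control 5 (24422 CPM) sits beside those of cisplatin 1 and 3 (24930.3 and 22504 CPM), and cisplatin 4 and 6 stand above all others.

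Of the 65 ribosomal protein genes with enough counts to test, 42 rose at both thresholds, an adjusted p under 0.05 and a log2 fold change of 1 or more (edgeR quasi-likelihood test, Benjamini-Hochberg over 9141 genes) and 0 fell, a share of 64.6% where 19.2% of all genes tested rose and 15.7% fell. No ribosomal protein was lower at an unadjusted p under 0.05, and DESeq2 called 45 higher and 0 lower at both thresholds. By the adjusted p alone 47 rose (72.3%, against 26.4% of all genes) and 0 fell (22.6% of all genes). The median log2 fold change was 1.29, from −0.17 to 2.02, where all genes had 0.08, and 64 of 65 were positive. With group means removed, the 58 subunit genes had a median pairwise correlation of 0.96 over the 8 libraries. Among the 1000 most abundant tested genes that were not members it was 0.04. With the library set means removed as well, the 2 values were 0.46 and 0.01, over 7 libraries. Ribosomal proteins thus moved together between libraries, in large part with the library sets, and counts of them are not counts of separate changes. In 16 of 65 (24.6%) every cisplatin library was above every control, a share near the 23.7% of all genes. In edgeR's test against a log2 fold change of 1 itself, 2 of 65 rose (3.08%), where 9.68% of all genes did. The number at both thresholds was 56 without control 5 (20.1% of all genes), 24, 24 and 26 without control 1, 2 and 3, 24 without cisplatin 4 and 22 without cisplatin 6, where 16.9% to 18.01% of all genes rose. Without cisplatin 1 or 3 it was 52 or 51 (19.1% and 19.4% of all genes). It was 61 without cisplatin 1 and 3, where 21.4% of all genes rose and 20.5% fell, and that fit sets cisplatin libraries of the second set against controls mostly of the first.

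The largest rises with no overlap between groups were in proteins of both subunits. Rps12, a small subunit protein (ENSMUSG00000061983, GRCm38 chromosome 10, 23785183 to 23787275), was at 46.6, 58.6, 51.9 and 150.0 CPM in the controls and at 273, 164, 346 and 392 CPM after cisplatin. Its log2 fold change was 1.94 (SE 0.42, edgeR adjusted p = 0.00388), and control 5 lay just under cisplatin 3. Rplp0, the base of the large subunit stalk that contacts the translation factors (ENSMUSG00000067274, chromosome 5, 115559467 to 115563727), was at 559.9, 547, 587 and 919 CPM against 1465, 1432, 2644 and 2787 CPM, with a log2 fold change of 1.67 (SE 0.30, edgeR adjusted p = 0.00135). Every cisplatin library stood clear of control 5, the highest control. Rps27l, a paralog of the small subunit protein Rps27 that is known as a p53 target (ENSMUSG00000036781, chromosome 9, 66946086 to 66949516), was at 74.0, 88.4, 85.2 and 134 CPM against 218, 177, 386 and 356 CPM, with a log2 fold change of 1.57 (SE 0.29, edgeR adjusted p = 0.00162). Of 5 paralogs tested Rps27l alone rose, and with the library set as a covariate Rpl22l1 and Rpl36al passed too (edgeR adjusted p = 0.00302 and 0.0121). Rpl41 (log2 fold change 1.55, SE 0.40) and Rpl18 (1.49, SE 0.30), both of the large subunit, also rose without overlap, with edgeR adjusted p of 0.00929 and 0.00285. Rps19 had the largest log2 fold change of all, 2.02 (SE 0.70, edgeR adjusted p = 0.0361), but control 5 at 332 CPM exceeded cisplatin 1 and 3 at 243 and 191 CPM, so its groups overlapped.

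The genes with the highest level per length were Rplp1, Rplp0 and Rps15. Rplp1, an acidic protein of the stalk, had a mean of 649.7 CPM per kilobase in the controls and 1692 after cisplatin, Rplp0 had 394 and 1255, and Rps15 of the small subunit had 489 and 1163. All rose, Rplp1 with a log2 fold change of 1.38 (SE 0.42, edgeR adjusted p = 0.0217) and Rps15 with 1.25 (SE 0.35, edgeR adjusted p = 0.015). At the other end, Rpl24 was at 1.10 to 1.60 CPM in the controls and 1.59 to 3.59 CPM after cisplatin, the lowest mean of the 58 subunit genes. Reads that a gene shares with its processed copies may be split or dropped in counting. The 182 rows of ribosomal protein pseudogenes held 0.0206% to 0.0411% of counts in controls and 0.0528% to 0.116% after cisplatin.

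Among the 30 most abundant ribosomal proteins, Rpl3, Rpl10 and Rpl4 differed least. Rpl3, a core large subunit protein near the peptidyl transferase centre, was at 364, 393, 382 and 684 CPM in the controls and 573, 513, 725 and 727 CPM after cisplatin, a log2 fold change of 0.48 (SE 0.24, edgeR adjusted p = 0.127). Control 5 was above 2 of 4 cisplatin libraries. Rpl10, which joins the large subunit late in its maturation, had a log2 fold change of 0.82 (SE 0.36, edgeR adjusted p = 0.0897). With the library set as a covariate both Rpl3 and Rpl10 rose (edgeR adjusted p = 0.0271 and 0.00213). Rpl4 rose without overlap, from a mean of 787 CPM ± 108 (SD, n = 4) to 1405 CPM ± 286 (SD, n = 4), with a log2 fold change of 0.84 (SE 0.20, edgeR adjusted p = 0.00681). The 18 ribosomal protein genes that did not pass also included Rps2, Rps9, Rps27a and Rpl22, with log2 fold changes of 1.01, 0.87, 1.59 and 0.70.

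By subunit, 24 of 35 large subunit genes and 17 of 23 small subunit genes rose at both thresholds (68.6% and 73.9%, beside 19.2% of all genes), and 29 and 17 by the adjusted p alone (82.9% and 73.9%, beside 26.4%). Their median log2 fold changes were 1.20 and 1.36. The ratio of small to large subunit CPM was 0.603, 0.606, 0.623 and 0.732 in the controls and 0.717, 0.672, 0.723 and 0.718 after cisplatin. Control 5 was the highest of all 8, so the groups overlapped, and within the second set the ratio was no higher after cisplatin. Of the paralog pairs tested, Rpl7 rose (log2 fold change 1.11, SE 0.30, edgeR adjusted p = 0.0113) and its relative Rpl7l1, a factor in ribosome assembly, had 0.32 (SE 0.19, edgeR adjusted p = 0.191). Neither gene passed in the other pairs without a covariate, with Rpl22 at 0.70 and Rpl22l1 at 1.41 (edgeR adjusted p = 0.109 and 0.0869), and Rpl3l, a muscle paralog of Rpl3, at 0.55 (edgeR adjusted p = 0.426) and 1.77 to 8.09 CPM. With the library set as a covariate Rpl22 and Rpl22l1 passed (edgeR adjusted p = 0.00312 and 0.00302) and Rpl3l did not (0.807). The difference within a pair was not tested. Of 5 member rows named as pseudogenes, 2 were tested, Rpl7a-ps5 at 1.13 and Rpl10-ps3 at −0.17 (edgeR adjusted p = 0.187 and 0.729). Rpl10l and Rpl39l, paralogs known from testis, had 0 and 1 count over all 8 libraries, as did Rpl13a-ps1, Rpl36-ps4 (0 each) and Rpl9-ps1 (1).

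**Figure D2:**
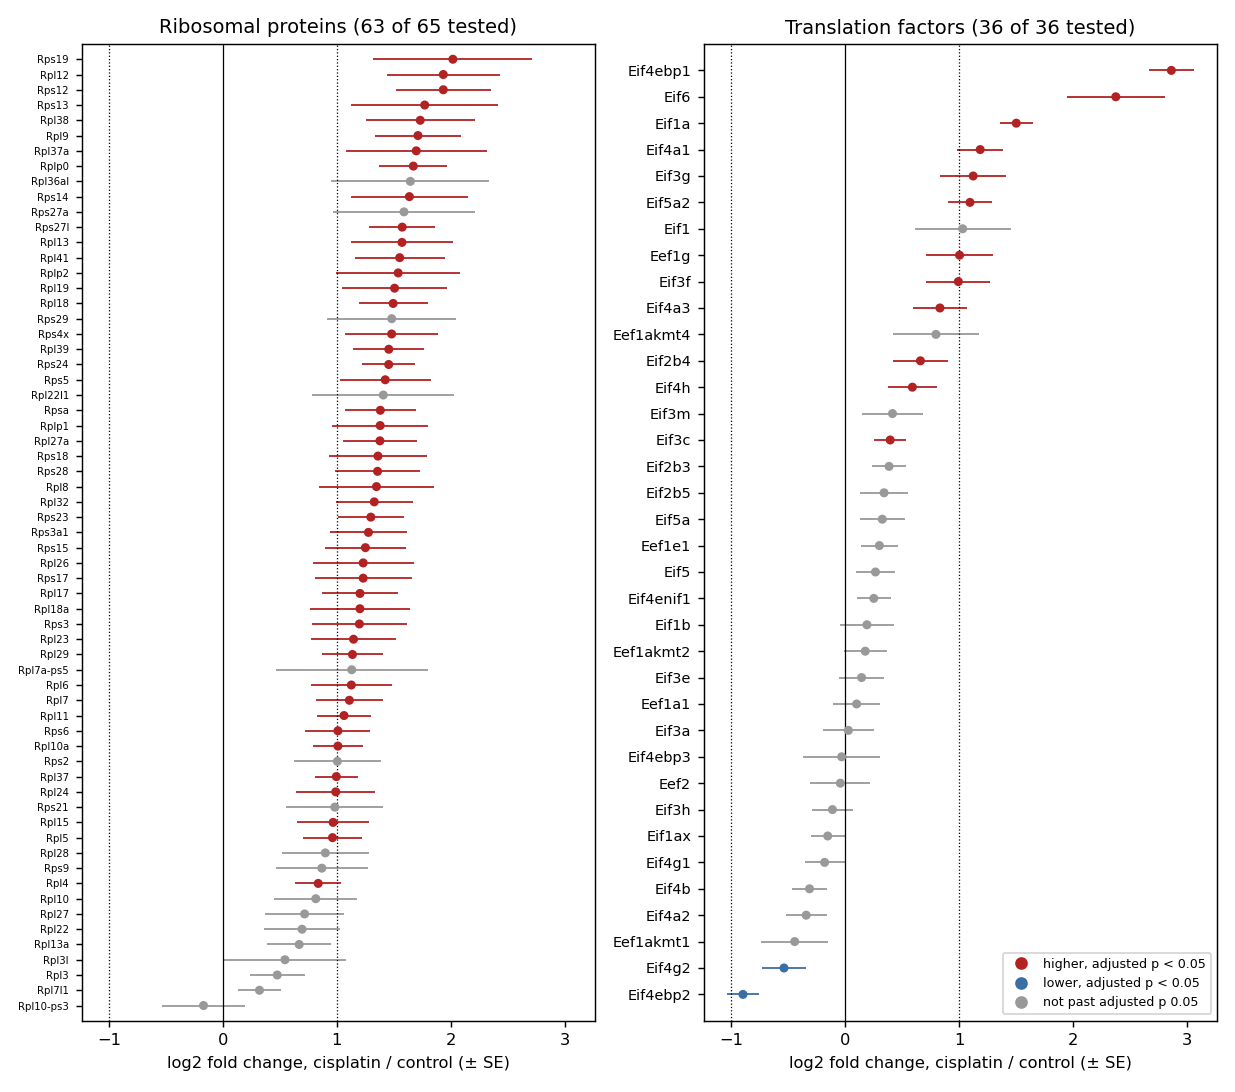
Log2 fold change, cisplatin over control, with its SE for 63 of the 65 ribosomal protein genes (left) and the 36 translation factors (right) tested, ordered by size. Red marks an edgeR adjusted p under 0.05 with a rise, blue one with a fall, and dotted lines mark log2 fold changes of 1 and −1. Of the ribosomal proteins shown all but Rpl10-ps3 lie right of 0, and the factors spread from −0.90 (Eif4ebp2) to 2.86 (Eif4ebp1).

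Ribosomal protein levels differed between the library sets by about as much as between the treatments. Control 5 was above the other 3 controls in 63 of 65 ribosomal proteins, where this held for 39.9% of all genes, with a median difference of 1.15 in log2(CPM + 0.5). Cisplatin 4 and 6 were above cisplatin 1 and 3 in 65 of 65 (36.7% of all genes), with a median difference of 1.03. Within each set the cisplatin libraries were still higher. The cisplatin libraries of the first set are 1 and 3, which held almost no Y-linked counts, unlike its controls. In that set the treatment cannot be told apart from this difference. In the first set the median cisplatin difference was 1.02, it was positive in 62 of 65, and in 58 of 65 both cisplatin libraries were above all 3 controls (39.6% of all genes). In the second set, with 1 control and hence no spread of its own, the median difference was 0.95 and 65 of 65 were positive. With the library set as a covariate, 60 of 65 rose by the edgeR adjusted p (32.1% of all genes) and 32 at both thresholds (19.3%), none fell, and the median log2 fold change was 0.99. The median SE of a ribosomal protein was 0.38 without the covariate and 0.12 with it. Since the sets were read from these same libraries, the smaller SE and its adjusted p may be too small. The 7 with a tract at the start followed the same split, for example Rps18 at 159, 164, 193 and 441 CPM against 363, 359, 823 and 914 CPM. Factors shifted less between sets, by medians of 0.39 in the controls and 0.34 after cisplatin.

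**Figure D3:**
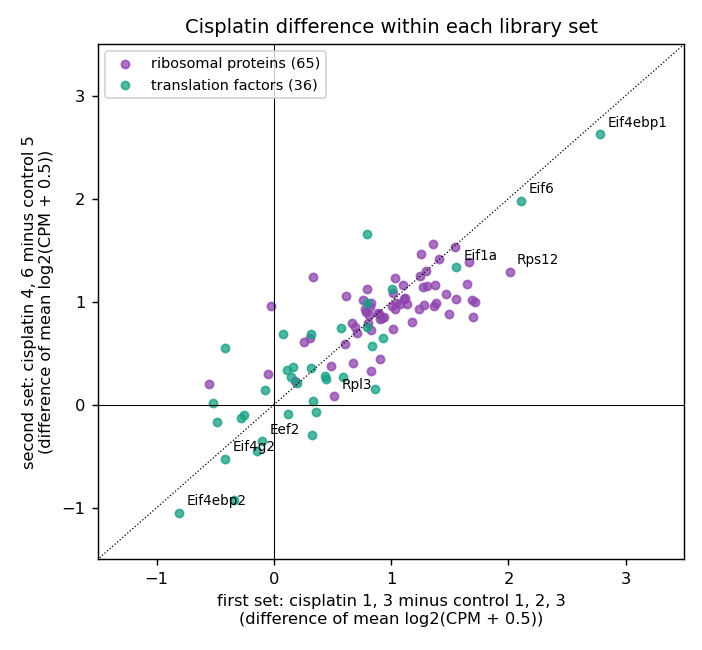
Difference in mean log2(CPM + 0.5), cisplatin minus control, within the first library set (horizontal; 2 cisplatin and 3 control libraries) and within the second (vertical; 2 and 1), for the 65 ribosomal protein genes and 36 factors tested. The dotted line marks equal differences. Ribosomal proteins gather near 1 on both axes, while Eif4ebp1, Eif6 and Eif4ebp2 stand apart along the line.

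Differences by transcript length, and the level of Malat1, moved with the library sets. Among tested genes that were not members, control 5 differed from the other controls by a median of 0.24 in genes of up to 1000 bases and by −0.15 in genes over 5000 bases, and cisplatin 4 and 6 differed from cisplatin 1 and 3 by 0.47 and −0.34. In successive length classes with upper limits of 1000, 2000, 3000 and 5000 bases, ribosomal proteins differed by medians of 1.16, 1.17, 0.97 and 1.07 in the controls and by 1.04, 1.14, 0.95 and 1.09 after cisplatin. Their medians thus stood above those of other genes in every class up to 5000 bases. Malat1, a long RNA that stays in the nucleus, was at 7122, 7986, 8768 and 330.1 CPM in the controls and 11695, 10739, 1329 and 1488 CPM after cisplatin, low in the second set. The other 4 listed nuclear RNAs summed to 1953, 2537, 2497 and 3079 CPM and to 1869, 2756, 949.5 and 1098 CPM, so they were low in cisplatin 4 and 6 but not in control 5. Summed leukocyte markers ran from 187 to 248 CPM in the controls and from 193 to 293 CPM after cisplatin and overlapped, with 6 higher and 4 lower of 17 tested. The shares were 35.3% and 23.5%, beside 26.4% and 22.6% of all genes. The part of length, Malat1 and cell makeup in the ribosomal protein result was not tested.

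**Figure D4:**
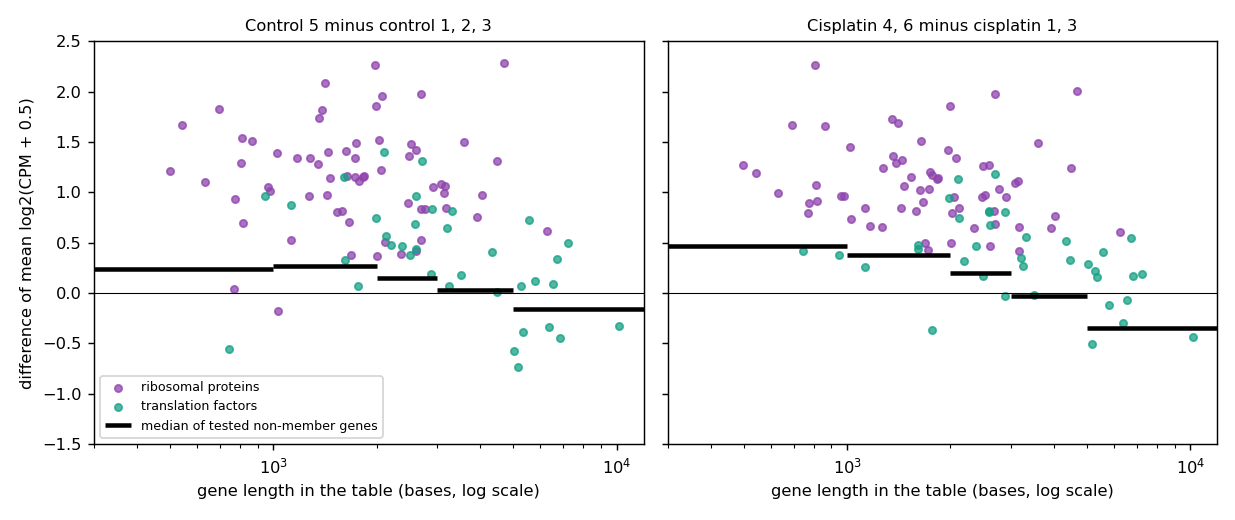
Difference between library sets in mean log2(CPM + 0.5), for controls (left) and cisplatin libraries (right), against the gene length given in the count table (log scale), for each tested member. Black bars give the median of tested genes that were not members in 5 length classes. Ribosomal proteins lie mostly between 0.4 and 2 in both panels, above the bars, which go from 0.24 to −0.15 on the left and from 0.47 to −0.34 on the right.

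Translation factors moved in both directions, with 26 log2 fold changes above 0 and 10 below. Of 36 tested, 7 rose at both thresholds in edgeR and 0 fell (7 and 0 in DESeq2), a share of 19.4% beside 19.2% of all genes, and by the adjusted p alone 12 rose (33.3%, against 26.4%) and 2 fell (22.6% of all genes). The median log2 fold change was 0.31, against 1.29 for ribosomal proteins and 0.08 for all genes. No test of the difference between the lists was made. In length classes ending at 1000, 2000, 3000 and 5000 bases, factor medians were −0.24, 0.19, 0.99 and 0.32 (2, 5, 11 and 6 genes). Those of ribosomal proteins were 1.29, 1.35, 1.04 and 1.38 (12, 27, 16 and 9 genes). Over 5000 bases, 12 factors had 0.09 and the 1 ribosomal protein 1.46. The lists were close in the class ending at 3000 bases and apart in the others. Other genes went from 0.26 in the shortest class to −0.10 in the longest. The part of length was not tested. In 8 factors every cisplatin library was above every control, 22.2% where all genes gave 23.7%, and in 2, Eif4ebp2 and Eif4b, every one was below (22.5% of all genes). With the library set as a covariate 16 rose and 4 fell by the edgeR adjusted p, where 32.1% and 28.7% of all genes did. Eif4e1b was at 0 counts in all libraries. A further 25 ribosomal protein and 25 factor genes, among them Eif2s1, Eif4e, Eif2s3x, Eef1b2 and Eef2k, lay in rows that could not be assigned to libraries and were not used here.

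The widest change among all members was in Eif4ebp1, which codes for 4E-BP1, the mTOR-controlled repressor that holds the cap-binding protein eIF4E (ENSMUSG00000031490, chromosome 8, 27260329 to 27276674). It was at 12.7, 11.4, 13.5 and 17.5 CPM in the controls and at 75.2, 105, 111 and 110.4 CPM after cisplatin. Every cisplatin library was far above every control, and the log2 fold change was 2.86 (SE 0.20, edgeR adjusted p = 6.31e-06). Its paralog Eif4ebp2 (ENSMUSG00000020091, chromosome 10, 61428491 to 61452661) fell, from 515, 468, 491 and 534 CPM to 265, 297, 251 and 265 CPM, with a log2 fold change of −0.90 (SE 0.14, edgeR adjusted p = 0.000577). The groups did not overlap in either gene, and cisplatin 1 was the lowest cisplatin library for Eif4ebp1. Per kilobase, mean Eif4ebp2 was 86.8 CPM against 6.27 CPM for Eif4ebp1 in the controls, and after cisplatin the means were close, at 46.6 and 45.7 CPM. Eif4ebp3, the remaining member of the family, was at 2.09 to 5.34 CPM with a log2 fold change of −0.03 (SE 0.34, edgeR adjusted p = 0.948). Eif4enif1, which carries eIF4E into the nucleus, had 0.25 (SE 0.15, edgeR adjusted p = 0.191).

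Eif6 and Eif1a followed. Eif6, whose product keeps immature large subunits from joining and takes part in their assembly (ENSMUSG00000027613, chromosome 2, 155819832 to 155826925), was at 60.6, 49.9, 54.8 and 137 CPM in the controls and at 277, 205, 579 and 508 CPM after cisplatin. The log2 fold change was 2.38 (SE 0.43, edgeR adjusted p = 0.00147), and within each group the second set was the higher, as for ribosomal proteins. Eif1a, a form of eIF1A, which helps the small subunit to scan for the start codon, was at 54.1, 64.1, 52.4 and 64.9 CPM against 189, 148, 159 and 169.9 CPM, a log2 fold change of 1.501 (SE 0.15, edgeR adjusted p = 4.09e-05). Its X-linked paralog Eif1ax was at 107, 117, 100.5 and 113 CPM against 105, 76.9, 103 and 107 CPM, a log2 fold change of −0.15 (SE 0.15, edgeR adjusted p = 0.416). Eif1 had 1.03 (SE 0.42, edgeR adjusted p = 0.0674), with control 5 at 542 CPM above cisplatin 1 and 3 at 449 and 298 CPM, and Eif1b had 0.19 (SE 0.24, edgeR adjusted p = 0.532).

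**Figure D5:**
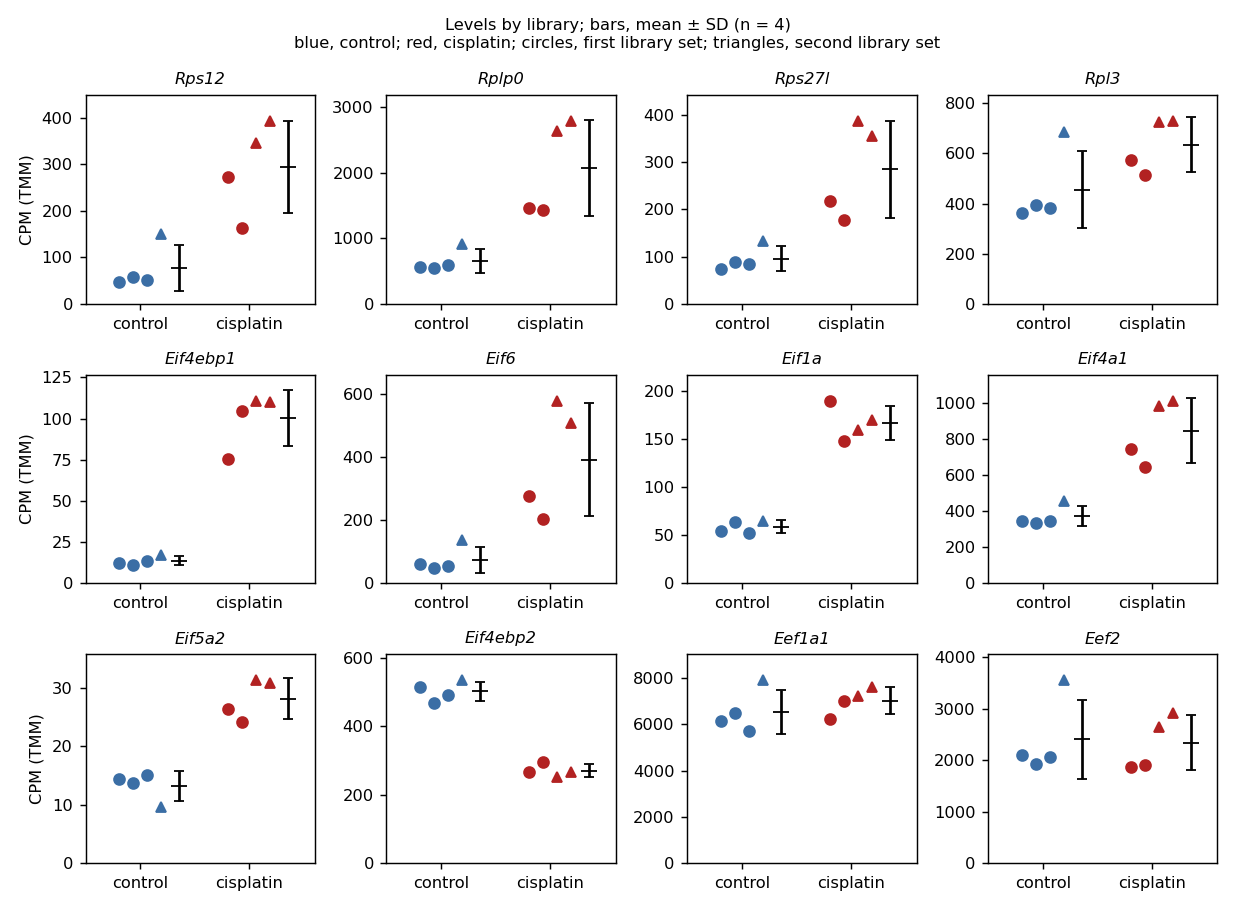
TMM-normalized CPM of 12 members in each library, controls in blue and cisplatin in red, with circles for the first and triangles for the second library set and bars for the mean ± SD (n = 4). Eif4ebp1, Eif1a and Eif4ebp2 separate the groups, Rps12, Rplp0, Rps27l and Eif6 separate them with the second set higher in each, and Eef1a1 and Eef2 do not separate them.

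Of the factors that act at the cap (eIF4), 2 of 6 tested rose by the adjusted p and 1 fell, beside 26.4% and 22.6% of all genes. Eif4a1, the helicase that unwinds the mRNA leader (ENSMUSG00000059796, chromosome 11, 69666936 to 69672423), was at 349, 337, 349 and 457 CPM in the controls and 748, 647, 984 and 1014 CPM after cisplatin, a log2 fold change of 1.18 (SE 0.20, edgeR adjusted p = 0.00103). Its paralog Eif4a2 had −0.34 (SE 0.18, edgeR adjusted p = 0.139), from a mean of 647 CPM ± 82.6 to 510.3 CPM ± 85.7 (SD, n = 4 each). In the controls Eif4a2 stood above Eif4a1 per kilobase, 121 against 86.1 CPM, and after cisplatin below it, 95.6 against 196 CPM. Another relative, Eif4a3, a core part of the exon junction complex, rose by 0.83 (SE 0.24, edgeR adjusted p = 0.0164). Eif4h, which aids the helicase, rose by 0.59 (SE 0.22, edgeR adjusted p = 0.0469). The scaffold Eif4g1 had −0.18 (SE 0.18, edgeR adjusted p = 0.419), while Eif4g2, a relative that lacks the eIF4E site, fell with a log2 fold change of −0.54 (SE 0.20, edgeR adjusted p = 0.0451). Eif4g2 was at 1917, 1962, 1866 and 1523 CPM against 1574, 1313, 1039.9 and 1081 CPM, and control 5 lay below cisplatin 1. The fall passed in 9 of 22 alternatives and not with the replicate block (edgeR adjusted p = 0.12), and its direction turned in 2.

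Of the eIF3 scaffold on the small subunit, 3 of 7 subunits tested rose, where 26.4% of all genes did: Eif3g (log2 fold change 1.12, SE 0.29, edgeR adjusted p = 0.0101), Eif3f (0.99, SE 0.28, edgeR adjusted p = 0.0152) and Eif3c (0.39, SE 0.14, edgeR adjusted p = 0.0404). Only Eif3c had no overlap between groups, at 321, 344, 316 and 369 CPM against 489.5, 407, 441 and 439 CPM, but its rise did not pass in 9 of 22 alternatives, 6 of which left out 1 library. Its largest subunit, Eif3a, had 0.03 (SE 0.22, edgeR adjusted p = 0.93), with 357 to 618 CPM in the controls and 447 to 643 CPM after cisplatin, lower in the second set of each group. Of 3 subunits of eIF2B, which recharges eIF2 with GTP, Eif2b4 rose (0.66, SE 0.24, edgeR adjusted p = 0.0435), and Eif2b3 and Eif2b5 had 0.38 and 0.34 (edgeR adjusted p = 0.0566 and 0.202).

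The main elongation factors, which were the most abundant members, did not pass. Eef1a1, which delivers tRNA to the ribosome and had the highest level per length of all members, was at 6133, 6474, 5704 and 7905 CPM in the controls and at 6254, 7002, 7235 and 7616 CPM after cisplatin. Its log2 fold change was 0.10 (SE 0.21, edgeR adjusted p = 0.714), and control 5 was the highest library. Eef2, which moves the ribosome by a codon, was at 2097, 1923, 2058 and 3551 CPM against 1866, 1909, 2647 and 2926 CPM, a log2 fold change of −0.04 (SE 0.26, edgeR adjusted p = 0.909). Eef1g, a part of the complex that recharges eEF1A, rose (1.004, SE 0.29, edgeR adjusted p = 0.017), with control 5 at 435 CPM above cisplatin 3 at 384 CPM. Eif5a, which eases difficult peptide bonds, had 0.33 (SE 0.20, edgeR adjusted p = 0.199) at a mean of 554 CPM in the controls. Its rarer paralog Eif5a2 rose from 14.4, 13.6, 15.1 and 9.51 CPM to 26.3, 24.2, 31.3 and 30.8 CPM, a log2 fold change of 1.10 (SE 0.19, edgeR adjusted p = 0.00134). Eef1akmt1, Eef1akmt2 and Eef1akmt4, methyltransferases of elongation factors, had log2 fold changes of −0.44, 0.18 and 0.80, and edgeR adjusted p of 0.233, 0.465 and 0.105, where 49.1% of all genes passed in either direction.

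All these values are relative to the other genes of a library. Scaled by total library size alone, the median of all genes went from 0.08 to 0.64, that of ribosomal proteins to 1.84 and that of factors to 0.87, so that relative to all genes they stood at 1.19 and 0.23, against 1.22 and 0.24 with TMM. On that scale 62 ribosomal proteins and 13 factors rose at both thresholds, where 34.7% of all genes did, and no member fell (8.78% of all genes). Of all genes past the adjusted p, 80.1% were then higher, against 53.9% with TMM. The log2 fold change of Eif4ebp2 was −0.33 on that scale and no longer passed (edgeR adjusted p = 0.0696), and those of Eif4g2 and Eif1ax turned to 0.04 and 0.41. Rps12, Rplp0, Eif4ebp1, Eif6 and Eif1a passed, with the same direction, under each of the 22 alternatives run.

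Other genes that build and serve the ribosome were described from lists. Of 53 ribosome biogenesis genes tested, 10 rose and 1 fell at both thresholds, a share of 18.9% up beside 19.2% of all genes. By the adjusted p alone 30 rose (56.6%, against 26.4% of all genes) and 3 fell (5.66%, against 22.6%). In 52.8% every cisplatin library was above every control (23.7% of all genes), and the median log2 fold change was 0.56. Gnl3, the nucleolar GTPase nucleostemin, rose from 43.3, 45.5, 47.5 and 41.4 CPM to 109, 73.4, 146 and 195 CPM (log2 fold change 1.56, SE 0.27, edgeR adjusted p = 0.00107), and Nip7, which acts in subunit assembly, rose by 1.41 (SE 0.29, edgeR adjusted p = 0.00316). Utp20, of the small subunit processome, fell (−1.01, SE 0.14, edgeR adjusted p = 0.000298), as did Gnl3l (−0.71, SE 0.20, edgeR adjusted p = 0.015). Of 11 tRNA synthetases tested, 5 rose by the adjusted p (45.5%, against 26.4% of all genes) and 0 fell (22.6% of all genes). Their median was 0.40, and Qars (0.77) and Rars (0.76) led, at edgeR adjusted p of 0.029 and 0.0146. Of 6 release and rescue genes, Gtpbp2 (0.59) and Etf1 (0.57), the release factor eRF1, rose and Mcts1 (−0.59) fell, at edgeR adjusted p of 0.0109, 0.0108 and 0.007. The shares were 33.3% up and 16.7% down, beside 26.4% and 22.6% of all genes.

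Of 18 genes that control translation through mTOR and the stress kinases of eIF2, 5 rose and 4 fell by the adjusted p, 4 and 1 of them at both thresholds. The shares of 27.8% and 22.2% lay near the 26.4% and 22.6% of all genes. Trib3, a pseudokinase induced in the integrated stress response, was at 0.683 to 1.73 CPM in the controls and rose, with 8.10 to 17.8 CPM after cisplatin (log2 fold change 3.30, SE 0.40, edgeR adjusted p = 0.000149). Ddit3, the transcription factor CHOP of the same response, rose from 15.2, 14.1, 12.6 and 16.6 CPM to 60.4, 45.1, 99.8 and 85.9 CPM (2.31, SE 0.25, edgeR adjusted p = 8.48e-05). Eif2ak1, the heme-regulated kinase of eIF2, fell from 146, 149.8, 135 and 162 CPM to 71.9, 65.9, 79.4 and 66.8 CPM (−1.06, SE 0.13, edgeR adjusted p = 0.000168). Rptor, the mTORC1 subunit Raptor, fell as well (−0.82, SE 0.22, edgeR adjusted p = 0.011). All 4 had no overlap between groups. Over the 88 genes of these lists, 42 rose and 8 fell by the adjusted p, beside 26.4% and 22.6% of all genes.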

How the data were processed

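Kidney RNA of 4 control and 4 cisplatin-treated mice was analysed, grouped by the treatment label. The authors aligned reads to GRCm38 with HISAT2, per the paper's methods (the submitters' processing notes also name fastp), and deposited raw read counts per gene, with no normalization. The counting tool, annotation and strand setting are not given in the sources used here, so genes that overlap on opposite strands, 16 members with a coding neighbour among them (Rpl12, Rpl18 and Rps28, for example), cannot be separated. The labels and the paper name different library kits, and the one used is unknown. Of 53715 rows, 35880 held 8 values, and 17835 held 10 and were not used, since 2 unnamed extra columns leave their values unassigned. Member coordinates are those of the table, and 98 of 107 were the same in GENCODE M21 (GRCm38).

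Counts were tested in R 4.3.3 with edgeR 4.0.16 (filterByExpr, TMM, quasi-likelihood test, no covariate, Benjamini-Hochberg over 9141 genes), with thresholds of 0.05 for the adjusted p and 1 for the absolute log2 fold change. The SE was the absolute log2 fold change divided by the square root of F. In simulated counts (9075 genes) edgeR called 63.6% of genes with a log2 change of 1.5 and 100% of those with 3 in the right direction, and 6 unchanged genes. The simulation drew genes and libraries independently and held no library sets, so these rates may not hold for the real counts. P-values measure the spread between the libraries of a group, which holds differences between mice and the unexplained library sets together. No replicate pair differed by as little as sampling noise (lowest chi-square per gene 15.1).

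The members and gene lists were chosen with earlier results of these data known. Genes named by rule were, for each kind and direction, the 6 largest log2 fold changes past the adjusted p with at least 1 CPM and no overlap between groups, the 3 with the highest CPM per kilobase, the 3 of the 30 most abundant nearest to 0, listed paralog pairs, key factors by role and, of other lists, the 2 largest per direction. Rps19, Rpl24, Eif3f, Eif3g, Eef1g and the other members named were chosen after their values were seen. Values of a few single members are not reported here, though the counts of members include them. The alternatives were DESeq2 1.42.0, other normalizations and filters, edgeR's test against a threshold of 1 on the log2 scale, the replicate block, the library set as a covariate, the first set alone, and each library left out.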

Additional observations from a re-analysis of the deposited data

Results flagged for a closer look

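In groups of 4 libraries, a library was marked where its gap to the nearest other exceeded Dixon's 95% limit, which chance alone passes in about 1 in 20 groups. Of 98 groups tested, 25 were marked, 22 of them in the controls, and in those control 5 was the library marked, 20 times as the highest. The share of counts on ribosomal proteins in control 5 was 1.92%, against 0.917% to 0.982% in the other controls, and its ratio of small to large subunit CPM was 0.732, against 0.603 to 0.623.

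Among ribosomal proteins, control 5 was high for Rps12 (150.0 CPM), Rplp0 (919 CPM), Rpl18 (331 CPM), Rps15 (513 CPM), Rpl3 (684 CPM), Rpl10 (867 CPM), Rpl22 (209.8 CPM), Rpl22l1 (29.3 CPM) and Rpl7 (591 CPM). Among factors it was high for Eif6 (137 CPM), Eif4a1 (457 CPM), Eef2 (3551 CPM), Eif5a (699 CPM), Eif1 (542 CPM), Eif1b (52.3 CPM), Eif4g1 (813 CPM) and Eif4a3 (105 CPM). It was also high for Nip7 (30.6 CPM) and low for Gnl3l (66.8 CPM) and Rars (76.5 CPM).

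In the cisplatin group, cisplatin 1 was low for Eif4ebp1 (75.2 CPM, against 105 to 111 CPM), and cisplatin 3 was low for Eif1ax (76.9 CPM) and for the ratio of small to large subunit CPM (0.672).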

How the results depend on the processing

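No alternative gave a fallen ribosomal protein or a fallen factor at both thresholds. Ribosomal proteins up at both thresholds numbered 31 to 62 under the other alternatives that used all 8 libraries with no threshold in the test. In those fits 11.4% to 36.4% of all genes rose. In the first set alone the number was 28 (17.6% of all genes), beside 42 as reported (19.2%). Against a log2 fold change of 1, edgeR called 2 ribosomal proteins (3.08%) and 3 factors (8.33%) higher. Of the other translation genes it called 5 rises and 0 falls. Of all 9141 genes, 885 rose (9.68%) and 803 fell in that test. By total library size, 13 factors rose (median 0.87), and 43 other genes rose and 0 fell (median 0.98). The share of factors up was 36.1%, where 34.7% of all genes rose and 8.78% fell. With the library set as well, added after seeing the data, the numbers were 13 (0.84), 44 and 0 (0.997). There 36.1% of factors rose, beside 36.4% of all genes. Other genes down numbered 1, not 2, with upper quartile scaling, TMM without the members, no filter, at least 10 counts, or the library set as a covariate. In the first set alone, 3 factors and 5 other genes rose (17.6% of all genes), and without cisplatin 1 and 3 (21.4%) the counts were 11 factors, 24 other genes up and 5 down. The factor share ratio was 1.49 with the most abundant genes out of the total. With total library size Eif1ax turned to 0.41 and Eif4g2 to 0.037, and with the library set as well Eif1ax, Eif4g2, Eef2 and Eif4g1 turned to 0.40, 0.15, 0.40 and 0.34. The cause of these changes was not tested.

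Leaving out each library in turn gave 22 to 56 ribosomal proteins up and 0 down (median 1.08 to 1.66), 5 to 9 factors up and 0 down (0.26 to 0.41), 11 to 16 other genes up and 1 to 3 down (0.37 to 0.48), and share ratios of 3.16 to 4.41 for ribosomal proteins and 1.58 to 1.70 for factors. In these fits 16.9% to 20.1% of all genes rose at both thresholds. Replicate numbers 1 and 3 occur in both groups, with correlations of their deviations of 0.25 and 0.28, and the samples share only a number. With the replicate block, which rests on 2 pairs of the first set, 31 ribosomal proteins, 4 factors and 8 other genes rose. In that fit 18.7% of all genes rose, beside 47.7% of ribosomal proteins and 11.1% of factors. Of 18 named genes past the adjusted p, 5 passed in all 22 alternatives. The 6 members with at most 1 count in all were at the floor of these depths and could not be tested.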
